A study of Manihot esculenta with 32 samples.

Results

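The comparison described here sets the leaf blade of cassava against its midvein, the central vein that was cut out of the same kind of leaf. Its members are the 3 libraries titled Leaf and the 3 titled Midvein, 6 of the 32 RNA-seq libraries of an expression atlas with 11 tissue/organ types. All 6 came from cultivar TME204, from plants that were 3 months old and were grown in a greenhouse with 12 h of light and 12 h of dark, with no treatment or genetic change in either group. The samples were dissected by hand, and the replicates of a tissue are stated to be separate biological replicates, although the labels do not say whether a leaf and a midvein with the same number came from the same plant. In bulk tissue of this kind, fewer cells of a type and less RNA per cell cannot be told apart.

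The blade of a leaf is mostly mesophyll, the green tissue in which photosystems harvest light and the Calvin cycle fixes carbon. The midvein holds xylem, whose dead conducting cells carry water and have walls thickened with cellulose and lignin, and phloem, which exports sucrose, set in ground tissue that stiffens the leaf. Cells of a vein elongate along the leaf while the blade expands in its plane, and expansins, pectin-modifying enzymes and auxin signalling are known to take part in such growth in plants.

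The 6 libraries held 6632747 to 15212032 fragments on loci with a gene name, and at 1 FPKM (the fragment count divided by transcript length and library size) a locus of median length carried 8.98 to 17.3 fragments. Between 21041 and 21099 loci reached 1 FPKM in the leaf libraries and between 21977 and 22004 in the midvein libraries. The 10 loci with most fragments took 6.599% to 8.39% of them in leaf and 4.63% to 5.09% in midvein. Spearman correlations over loci, which are not independent replicates, lay between 0.954 and 0.979 within a tissue and between 0.890 and 0.930 across the 2 tissues. Leaf 1 stood apart in heat shock genes, as described at the end.

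The labels were checked against genes known to mark the tissues, taken from word lists applied to the annotation. The 30 photosystem and antenna loci summed to between 61432 and 73334 FPKM in the leaf libraries and to between 32845 and 34634 FPKM in the midvein libraries. Thus midvein carried about 1 FPKM of these transcripts for every 2 in the blade, and the green tissue marker was far from absent there. The 35 loci of the secondary wall and xylem list, of which 15 were tested, summed to 132, 135 and 202 FPKM in leaf and to 364, 451 and 534 FPKM in midvein. Neither sum overlapped between the tissues. The xylem list does not mark veins alone, since its summed mean was 1120 FPKM in the shoot apical meristem. How much blade tissue the midvein samples held was not tested.

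Every named locus averaging 1 FPKM or more in either tissue was tested with edgeR (quasi-likelihood test, Benjamini-Hochberg adjustment), and it was called when its adjusted p was below 0.05 and its mean FPKM differed by more than 4-fold. Of 22920 loci tested, 1295 (5.65%) were called, and the calls fell almost entirely on one side. Midvein was higher at 1203 loci (5.25%) and leaf at 92 (0.401%), so that 92.9% of the calls were midvein genes. The imbalance came with the size of the differences more than with their number. At the adjusted p alone, 3657 loci (16%) were higher in midvein and 2791 (12.2%) were higher in leaf. With the replicate number as a block, these counts were 4643 (20.3%) and 4566 (19.9%), 40.2% in all against 28.1% without the block, and without midvein 2 the count higher in leaf was 1586.

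The leaf and midvein differences had different shapes. Loci higher in leaf at the adjusted p alone were abundant, with a median of 48.5 FPKM in leaf, and their median change was 0.83 on the log2 scale. Only 3.30% of them passed 4-fold. Loci higher in midvein at the same threshold were less abundant, with a median of 12.1 FPKM in midvein, and changed by a median of 1.45 on the log2 scale. Of these, 32.9% passed 4-fold.

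**Figure D1:**
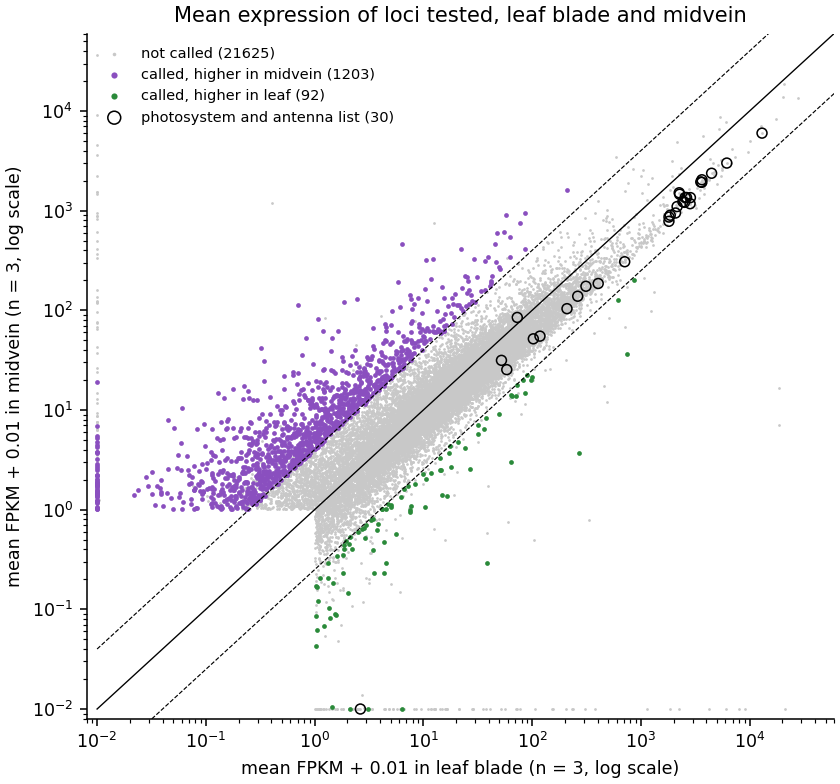
Mean FPKM plus 0.01 in midvein (vertical, log scale) against leaf blade (horizontal, log scale) for the 22920 loci tested, n = 3 libraries each. The solid line marks equal levels and the dashed lines 4-fold differences, coloured points are called loci, open circles are the 30 photosystem and antenna loci, and points along the bottom and left edges have a mean of 0 in a tissue. The called loci higher in midvein number 1203 and those higher in leaf 92, and the circles run along the leaf side of the line at about 2-fold.

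Many called loci were near silent in the lower tissue. Among the 1203 loci called higher in midvein, the median was 5.97 FPKM in midvein and 0.757 FPKM in leaf, 680 had a leaf mean below 1 FPKM, and 60 reached 100 FPKM in midvein. Their ratios lay between 4 and 8 at 689 loci, between 8 and 16 at 271 and above 16 at 243. The 92 loci called higher in leaf had medians of 4.87 FPKM in leaf and 0.960 FPKM in midvein, and 4 of them reached 100 FPKM. In 1171 of the 1203 and in 73 of the 92, the 3 libraries of a tissue did not overlap those of the other, against 42.5% of all loci tested. The calling used the same libraries and favours such separation, so these counts are no further support for the calls. FPKM did not sum to a common total, with 1595330 to 1665590 in leaf and 941551 to 1362050 in midvein, and rescaling every library to the same sum shifted the median of all loci by 0.58 on the log2 scale towards midvein and gave 1810 calls, 1780 higher in midvein and 30 higher in leaf, which held 1229 of the 1295. Those sums include 127 short loci with unusable FPKM, described at the end. Without them the sums were 1106440 to 1244100 in leaf and 845670 to 915656 in midvein. Rescaling without them was not tested.

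Annotation words were taken only from the gene lists the study supplied for other comparisons, in part for leaf against fibrous root. They reached 4849 of the 32732 named loci, 3540 of them tested. Annotated loci were called more often than all loci, 12.6% of them, with 11.8% higher in midvein and 0.791% higher in leaf. At the adjusted p alone, 43.5% of the annotated loci differed, 24.7% higher in midvein and 18.8% in leaf, and at 55% the libraries of the tissues did not overlap. Some of those lists were selected on tissues that include these leaf libraries, and the part of that choice in the difference was not tested. Counts for gene groups are to be read against these shares, which come from the main fit. With the replicate block, shares were computed over all named loci only. Counts of gene groups with the block therefore have no matching share of annotated loci.

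Most photosynthesis genes were lower in midvein by a similar factor. Of 30 photosystem and antenna loci, 24 passed the adjusted p and all 24 were higher in leaf, none was called by edgeR or by DESeq2, and the median log2 fold change, midvein over leaf, was −0.90, against −0.03 over all loci tested. As a log2 FPKM ratio after rescaling to the same sum, the median was −0.45, against 0.47 over all loci tested. At an unadjusted p below 0.05, 26 were higher in leaf and none in midvein. The log2 fold changes of the 24 lay in a narrow band, from −1.20 to −0.65. The remaining 6 ran from −3.58 to 0.31 and did not pass. Loci named for photosystem I, with a median of −0.89 over 10, and for photosystem II, with a median of −0.98 over 13, lay close together.

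The most abundant of them was the locus of Manes.17G066800 and Manes.17G066900 on chromosome 17, annotated as light-harvesting complex II subunit B1, an antenna protein that binds chlorophyll. It was at 12549, 14507 and 12018 FPKM in leaf 1, 2 and 3 and at 5057, 6481 and 6478 FPKM in midvein 1, 2 and 3. Every midvein library was therefore below every leaf library, and the log2 fold change was −1.06 (SE 0.27, edgeR adjusted p = 0.0049). The locus covers 2 genes, which its value does not separate.

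The same step was seen along the rest of the light reactions and carbon fixation. In the electron transport and thylakoid list, 9 of 12 loci passed and were higher in leaf, none passed in the other direction, and the median log2 fold change was −0.93. Plastocyanin 1 (Manes.05G142000), the copper protein that carries electrons to photosystem I, was at 5574, 7400 and 7200 FPKM in leaf and at 2888, 2940 and 3118 FPKM in midvein (log2 fold change −1.10, SE 0.30, edgeR adjusted p = 0.0076). In the Calvin cycle and carbonic anhydrase list, 10 of 19 loci tested were higher in leaf and 2 higher in midvein, with a median of −0.89. As log2 FPKM ratios after rescaling to the same sum, the medians were −0.45 for electron transport and −0.42 for the Calvin cycle list. A Rubisco small chain locus (Manes.01G011500), part of the enzyme that fixes CO2, was among the most abundant transcripts in both tissues, at 18972, 29168 and 35377 FPKM in leaf and at 10795, 13163 and 16307 FPKM in midvein. Its libraries did not overlap, and its log2 fold change was −0.97 (SE 0.30, edgeR adjusted p = 0.018).

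The 2 loci of that list higher in midvein were exceptions. A further Rubisco small chain locus (Manes.06G023400), named with its values known, was at 7.21 ± 2.19 FPKM in leaf and 15.3 ± 4.58 FPKM in midvein (SD, n = 3, edgeR adjusted p = 0.046). The other exception was the locus of Manes.09G062500 and Manes.09G062600, annotated as alpha carbonic anhydrase 7. It was called in the opposite direction, at 0.354, 0.744 and 0.378 FPKM in leaf and 3.67, 4.01 and 2.95 FPKM in midvein. A locus annotated as beta carbonic anhydrase 4 (Manes.13G029900), looked up afterwards, was at 218 ± 32.3 FPKM in leaf and 118 ± 15.8 FPKM in midvein (SD, n = 3). Carbonic anhydrases interconvert CO2 and bicarbonate, and the alpha carbonic anhydrase 7 and beta carbonic anhydrase 4 loci stood far apart in level in both tissues. The loci annotated as carbonic anhydrase 1 were more abundant, with lower means in midvein, and did not pass. Manes.15G167500 was at 10026 ± 304 against 5025 ± 232 FPKM and Manes.17G116800 at 3972 ± 1906 against 2125 ± 608 FPKM (SD, n = 3, edgeR adjusted p = 0.17 and 0.096).

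Pigment and starch genes were lower in midvein in part. Of 11 loci tested in the chlorophyll and carotenoid synthesis list, 6 were higher in leaf, 2 higher in midvein and none called by edgeR or DESeq2, with a median of −0.87. The list also holds chlorophyllases, enzymes that cleave chlorophyll, so these values are not those of synthesis alone. Chlorophyllase 2 (Manes.03G173700) was among the 6, at 60.8 ± 13.8 FPKM in leaf and 31.7 ± 1.10 FPKM in midvein (SD, n = 3, edgeR adjusted p = 0.0053). As a log2 FPKM ratio after rescaling to the same sum, the median of the list was −0.36. Protochlorophyllide oxidoreductase A (Manes.03G113300), which carries out the light-dependent step of chlorophyll synthesis, was at 451, 589 and 630 FPKM in leaf and at 192, 231 and 229 FPKM in midvein (log2 fold change −1.29, SE 0.29, edgeR adjusted p = 0.0019). In starch and trehalose metabolism, 5 of 15 loci were higher in leaf (9 with the replicate block) and 3 higher in midvein, with a median of −0.59 that was −0.04 as a log2 FPKM ratio after rescaling to the same sum. Starch branching enzyme 2.2 (Manes.08G022400) was at 181, 199 and 136 FPKM in leaf and 87.3, 111 and 82.8 FPKM in midvein.

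**Figure D2:**
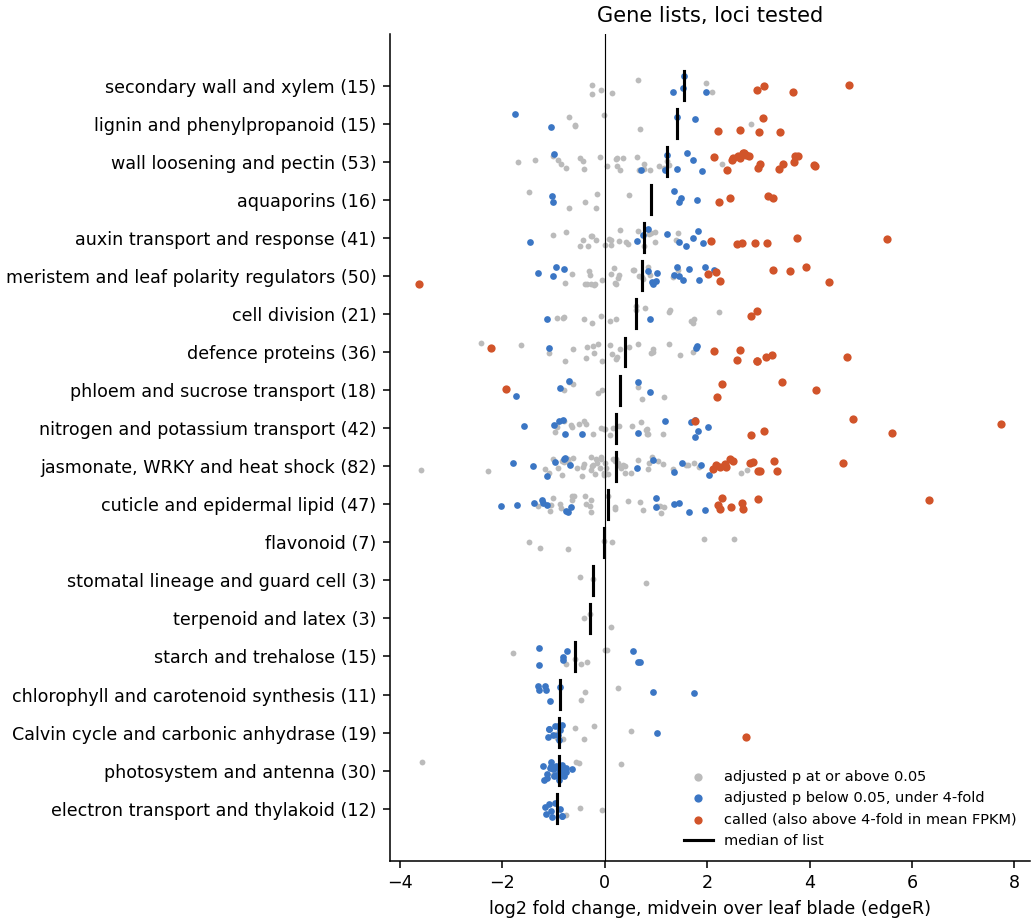
Log2 fold change of midvein over leaf blade (horizontal) for the loci tested in each of 20 gene lists (vertical, number tested in parentheses), ordered by median. Grey points did not pass an adjusted p of 0.05, blue points passed without a 4-fold difference in mean FPKM, orange points were called and black bars are medians. The 4 lists of light reactions, carbon fixation and pigments gather near −0.9, with 1 called locus among them, while the orange points of the wall, xylem, aquaporin and auxin lists lie to the right.

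Genes of thickened and lignified walls that passed the test were all higher in midvein. Of 35 loci in the secondary wall and xylem list, 15 were tested, 8 were higher in midvein and none higher in leaf, and 4 were called. The median log2 fold change was 1.55. The locus with the highest level was Manes.18G018800 (chromosome 18, 1487612 to 1490126), annotated as Walls Are Thin 1, a vacuolar auxin transporter that secondary walls of fibres require in Arabidopsis. It stood at 22.2, 15.8 and 8.82 FPKM in leaf and at 199, 117 and 82.2 FPKM in midvein, so that the lowest midvein library was above the highest leaf library (log2 fold change 3.11, SE 0.36, edgeR adjusted p = 8.2e-07). A further locus with that annotation, Manes.05G153500, was higher in midvein without reaching 4-fold, at 32.4, 42.8 and 39.5 FPKM against 146, 76.2 and 93.2 FPKM. Another locus, Manes.02G099800, likewise named with its values known, measured 3.46 ± 1.23 FPKM against 2.78 ± 0.405 FPKM with overlapping libraries (SD, n = 3; edgeR adjusted p = 0.52).

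Other members had low levels and were near 0 in the blade. Fasciclin-like arabinogalactan-protein 11 (Manes.04G022900), a cell surface protein of fibre and xylem walls in Arabidopsis, was at 0, 0.306 and 0 FPKM in leaf and at 2.77, 5.34 and 3.33 FPKM in midvein. With a floor of 3 fragments in a library it was at least 6.19-fold higher in midvein. Myb domain protein 42 (Manes.06G136500), a regulator of lignin genes in Arabidopsis, was at 0, 0.756 and 0.367 FPKM against 3.52, 3.49 and 2.17 FPKM. The locus of xylem serine peptidase 1, covering Manes.05G041500 and Manes.05G041600, was at 1.08, 0.694 and 1.35 FPKM against 11.1, 4.82 and 16.4 FPKM. In all 3 the tissues did not overlap, yet all were below 20 FPKM in midvein.

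The enzymes that make lignin followed, with less uniformity. Of 28 loci in the lignin and phenylpropanoid list, 15 were tested, 7 were higher in midvein, 2 were higher in leaf and 5 were called, all higher in midvein, with a median of 1.41. The 2 higher in leaf are named here with their values known. PHE ammonia lyase 1 (Manes.04G018000) was at 15.6 ± 15.3 FPKM in leaf and 4.40 ± 2.05 FPKM in midvein (edgeR adjusted p = 0.023). A dirigent-like locus (Manes.02G014600 and Manes.02G014700) was at 159 ± 30.0 FPKM against 71.6 ± 11.2 FPKM (SD, n = 3, edgeR adjusted p = 0.03). With the replicate block, 4 were higher in leaf. Cinnamoyl CoA reductase 1 (Manes.04G103200), which opens the branch to monolignols, was at 1.77, 0.928 and 1.24 FPKM in leaf and at 10.9, 9.11 and 7.46 FPKM in midvein (log2 fold change 3.00, SE 0.43, edgeR adjusted p = 1.5e-05). A caffeoyl-CoA O-methyltransferase locus (Manes.15G136300 and Manes.15G136400) was at 0.171, 2.01 and 2.55 FPKM against 6.86, 9.86 and 10.4 FPKM. Laccases polymerise monolignols, and 3 were called. Manes.02G122300, which was named with its values known, measured 0.367 ± 0.234 FPKM in leaf and 4.08 ± 2.35 FPKM in midvein (SD, n = 3) and stayed called whichever library was left out. Laccase 17 (Manes.09G094600) and Manes.01G164900 lost the call without midvein 2, the library in which both were highest, and Manes.01G164900 also without leaf 1 or leaf 3. The call of the methyltransferase locus was lost without leaf 1. The cinnamyl alcohol dehydrogenase 6 locus (Manes.13G102400 and Manes.13G102500) was the uncalled member of highest level, at 111, 92.2 and 140 FPKM against 241, 265 and 344 FPKM (edgeR adjusted p = 7.9e-06).

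Sucrose and phloem genes were mixed. Of 18 loci tested, 6 were higher in midvein and 4 in leaf, 4 and 1 of them were called, and the median was 0.29. The replicate block put 7 higher in leaf. Sucrose synthase 4 (Manes.03G044400; chromosome 3, 3583061 to 3589778), which cleaves sucrose for use in sink tissues and in phloem, was at 5.32, 7.54 and 4.59 FPKM in leaf and at 44.4, 76.3 and 62.4 FPKM in midvein (log2 fold change 3.46, SE 0.40, edgeR adjusted p = 7.5e-07). Both loci annotated as phloem protein 2-A14 were called. Manes.06G144300 was at 10.8, 3.51 and 5.15 FPKM in leaf and at 41.9, 19.4 and 22.3 FPKM in midvein, and Manes.14G028700 was below 5 FPKM in every library. Without leaf 3 neither was called, and Manes.06G144300 was not called without leaf 2 or midvein 1. The loci annotated as phloem protein 2-A12, added after their values were seen, had lower means in midvein. Manes.02G027400 was higher in leaf, at 113 ± 15.7 FPKM against 59.1 ± 1.94 FPKM (edgeR adjusted p = 0.012), and Manes.01G066600 was at 29.1 ± 3.32 FPKM against 17.9 ± 2.07 FPKM (SD, n = 3; edgeR adjusted p = 0.32).

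Sucrose-proton symporter 2 (Manes.02G190300), a locus annotated for the transporter that loads sucrose into phloem in Arabidopsis, was at 0, 1.57 and 0 FPKM in leaf and at 0.0262, 20.1 and 13.1 FPKM in midvein. Midvein 1 lay below leaf 2, so the tissues overlapped, and the call (edgeR adjusted p = 0.02) was lost without leaf 1, leaf 3 or midvein 2. A further locus with that annotation, Manes.18G099400, named with its values known, was more abundant. It was higher in midvein without being called, at 49.8 ± 5.11 FPKM in leaf and 87.3 ± 6.51 FPKM in midvein (SD, n = 3, edgeR adjusted p = 0.031). In the other direction, Manes.02G174100, a Nodulin MtN3 family protein, was called at 1.997, 1.05 and 3.27 FPKM against 0.850, 0.495 and 0.228 FPKM, and lost the call without leaf 3, midvein 2 or midvein 3. The same name lies on a more abundant locus, added after its values were seen, which was higher in leaf without being called. Its means were 21.9 FPKM in leaf and 6.28 FPKM in midvein (log2 fold change −1.74, SE 0.37, edgeR adjusted p = 0.0011). The Nodulin MtN3 family includes the SWEET sugar exporters. Senescence-associated gene 29 (Manes.12G006700), which is SWEET15 in Arabidopsis, was higher in midvein, at 2.42, 0.456 and 0.177 FPKM against 17.3, 25.2 and 15.5 FPKM (log2 fold change 4.31, SE 0.89, edgeR adjusted p = 0.0008).

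Wall loosening and pectin genes gave the largest number of calls of any list. Of 76 loci, 53 were tested, 26 were higher in midvein and 1 in leaf (3 with the replicate block), 19 were called, all higher in midvein, and the median was 1.22. The called loci included 7 expansins, proteins that loosen the wall during growth, 6 annotated for invertase or pectin methylesterase inhibitors, 5 pectin lyase-like proteins and 1 xyloglucan endotransglucosylase. Expansin A15 (Manes.02G053000; chromosome 2, 4028227 to 4029804) was at 33.8, 48.6 and 53.5 FPKM in leaf and at 434, 479 and 471 FPKM in midvein (log2 fold change 3.41, SE 0.47, edgeR adjusted p = 8e-06). The midvein libraries lay within a narrow range, 10.2-fold above the blade by mean FPKM. A further expansin A15 locus, Manes.01G092600, was at 2.63, 14.2 and 6.37 FPKM against 85.7, 143 and 162 FPKM, and expansin A8 (Manes.S055800) was at 4.05, 9.51 and 10.2 FPKM against 76.1, 163 and 70.7 FPKM. The expansins of highest level in leaf, named with their values known, had lower means in midvein without passing. Expansin A1 was at 356 ± 228 against 243 ± 74.6 FPKM at Manes.05G103900 (edgeR adjusted p = 0.44). At Manes.01G034500 it was at 236 ± 222 against 86.7 ± 40.9 FPKM (edgeR adjusted p = 0.088). Expansin A4 (Manes.02G131900) was at 219 ± 68.1 against 102 ± 8.47 FPKM (SD, n = 3, edgeR adjusted p = 0.073). The list member of highest level, the inhibitor family locus Manes.14G034600, overlapped between the tissues, at 1801, 2175 and 1953 FPKM in leaf and 1733, 1835 and 1674 FPKM in midvein (edgeR adjusted p = 0.79).

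A family without a list stood out beside them. Of 6 loci tested that were annotated as protein of unknown function DUF642, a plant family of cell wall proteins, 5 were called higher in midvein. Manes.16G119100 (chromosome 16, 27237062 to 27239352) was at 46.04, 41.2 and 84.6 FPKM in leaf and at 901, 921 and 869 FPKM in midvein (log2 fold change 4.05, SE 0.56, edgeR adjusted p = 7.7e-06). Manes.03G017500 was at 71.6, 93.1 and 65.7 FPKM against 774, 714 and 768 FPKM. Of the rest, which were looked up after the count was seen, Manes.09G021100 was at 2.31 ± 0.635 FPKM in leaf and 16.4 ± 0.278 FPKM in midvein, and Manes.04G118200 and Manes.10G139500 were below 1 FPKM in leaf (SD, n = 3). The uncalled member, Manes.17G069400, was at 99.3 ± 12.5 FPKM in leaf and 74.7 ± 11.0 FPKM in midvein, with overlapping libraries. The phrase was picked out of those annotation phrases with 5 or more calls because of its high share, so the count carries no test.

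SPIRAL1-like2 (Manes.02G018200; chromosome 2, 1487259 to 1488183) was among the 12 annotated loci of largest ratio. Its Arabidopsis relatives bind microtubules and act in directional cell expansion. It was at 3.26, 1.47 and 0.849 FPKM in leaf and at 157, 95.0 and 113 FPKM in midvein, 65.3-fold by mean FPKM (log2 fold change 6.05, SE 0.55, edgeR adjusted p = 2e-08). The blade values rest on 2 to 11 fragments per library. Petiole was at 575 FPKM, stem at 430 FPKM and storage root at 588 FPKM, while lateral bud was at 4.33 FPKM and FEC, a callus, at 0.596 FPKM.

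**Figure D3:**
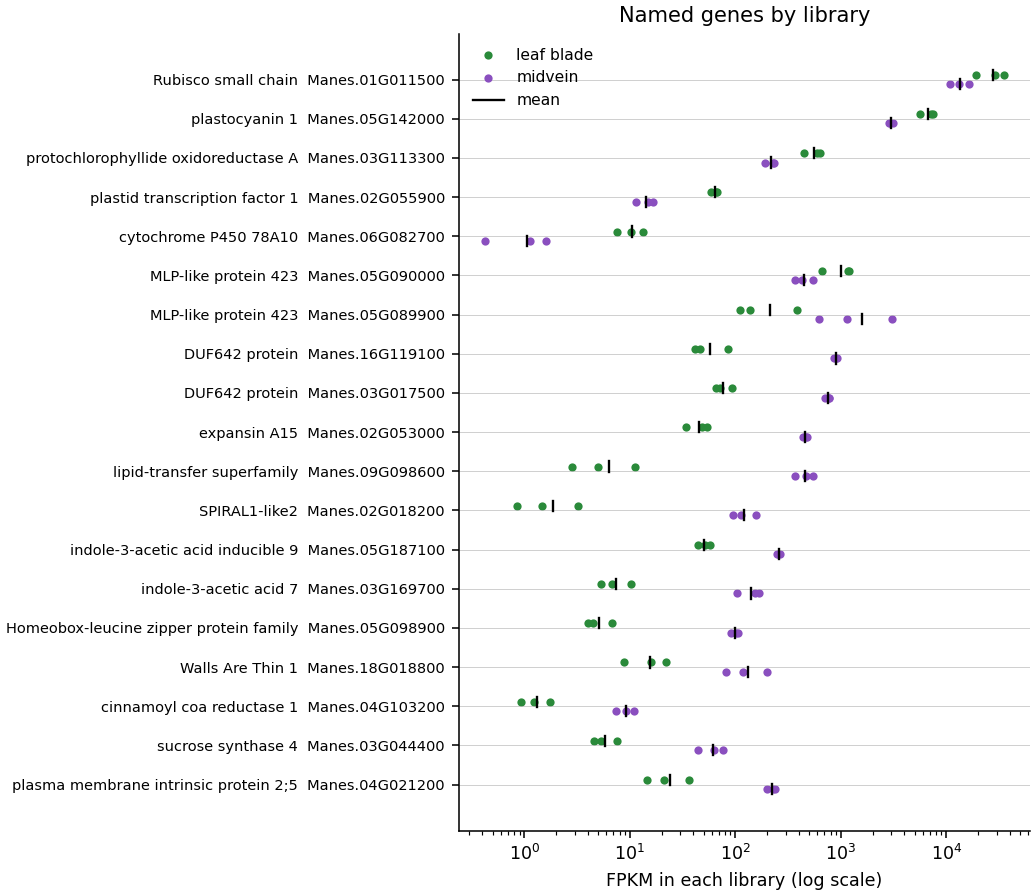
FPKM (horizontal, log scale) of 19 named genes (vertical) in each of the 3 leaf blade libraries (green) and 3 midvein libraries (purple), with black bars for the means. The first 3 rows, for photosynthesis and chlorophyll synthesis, show a small shift to leaf, while DUF642, expansin A15, lipid-transfer and SPIRAL1-like2 loci are separated by 9.79-fold or more in mean FPKM.

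Auxin genes that passed the test were mostly higher in midvein. Of 41 loci tested in the auxin transport and response list, 16 were higher in midvein, 1 was higher in leaf (2 with the replicate block) and 7 were called, all in midvein, with a median of 0.76. Auxin response factor 8 (Manes.17G074300) was at 17.6, 18.1 and 11.0 FPKM in leaf and at 62.4, 67.1 and 58.5 FPKM in midvein, and an Auxin efflux carrier family locus (Manes.14G171100) at 1.43, 1.02 and 1.05 FPKM against 8.41, 9.55 and 7.45 FPKM. The first, just above 4-fold, lost its call without leaf 3 or midvein 2. ARGOS, the auxin-regulated gene involved in organ size (Manes.05G208400), was at 1.01, 0.575 and 1.25 FPKM against 3.20, 24.6 and 6.19 FPKM.

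The Aux/IAA repressors, which are degraded when auxin is sensed, were not matched by the words of that list and diverged from each other. Indole-3-acetic acid inducible 9 (Manes.05G187100; chromosome 5, 25808144 to 25813000) was at 51.1, 43.9 and 57.6 FPKM in leaf and at 255, 251 and 267 FPKM in midvein (log2 fold change 2.39, SE 0.19, edgeR adjusted p = 3.9e-09). Indole-3-acetic acid 7 (Manes.03G169700) was at 6.79, 5.38 and 10.2 FPKM against 103.3, 153 and 167 FPKM. Other members were looked up after these. Of the loci annotated as inducible 30, Manes.05G008300 was called higher in midvein, at 0.236 ± 0.0305 against 2.41 ± 0.875 FPKM, and Manes.01G235500 was higher in leaf, at 3.64 ± 0.686 against 1.52 ± 0.568 FPKM (SD, n = 3; edgeR adjusted p = 0.043). The loci annotated as inducible 14, Manes.05G084300 and Manes.15G036200, had log2 fold changes of −0.63 and 1.03 that did not pass (edgeR adjusted p = 0.31 and 0.061).

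Water and boron channels were among the strongly called transport genes. Of 16 aquaporin loci tested, 8 were higher in midvein, 2 were higher in leaf and 4 were called, with a median of 0.91. The replicate block put 4 higher in leaf. All 22 loci of the list, untested ones included, summed to 959 to 1305 FPKM in leaf and 1795 to 2550 FPKM in midvein. Plasma membrane intrinsic protein 2;5 (Manes.04G021200), a water channel, was at 36.7, 14.5 and 20.9 FPKM in leaf and at 228, 198 and 240 FPKM in midvein. NOD26-like intrinsic protein 5;1 (Manes.01G001400), a boric acid channel in Arabidopsis, was at 29.5, 19.8 and 26.2 FPKM against 203, 221 and 228 FPKM (log2 fold change 3.19, SE 0.36, edgeR adjusted p = 4.5e-07). Tonoplast intrinsic protein 4;1 (Manes.03G062300), of the vacuolar membrane, was at 43.2, 54.9 and 30.9 FPKM against 165, 286 and 220 FPKM.

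In the nitrogen and potassium transport list, 13 of 42 loci were higher in midvein and 6 in leaf (10 with the replicate block), with a median of 0.22. Its 6 called loci, all higher in midvein, were 4 annotated as transmembrane amino acid transporters and 2 as nodulin MtN21/EamA-like transporters, the family that holds Walls Are Thin 1. This number lay near the share over all annotated loci tested, of which 11.8% were called higher in midvein and 0.791% in leaf. Manes.08G109200 of the MtN21 family was at 0.0784, 0 and 0.0960 FPKM in leaf and at 2.33, 2.84 and 2.28 FPKM in midvein, at least 11.6-fold higher with a floor of 3 fragments in a library. The oligopeptide transporter Manes.09G082900 went the other way, at 154, 98.1 and 104 FPKM in leaf against 71.0, 61.3 and 64.9 FPKM in midvein (edgeR adjusted p = 0.0032). Of the 23 loci annotated as heavy metal transport/detoxification proteins, a phrase not in a list, 7 were called higher in midvein. The phrase was chosen with its calls known, so the count carries no test. Among the 7 was Manes.01G044400, at 0.568, 0.483 and 0.477 FPKM against 23.1, 23.6 and 18.6 FPKM. Manes.04G015400 was higher in leaf without being called, with overlapping libraries. Its means were 6.85 FPKM in leaf and 3.34 FPKM in midvein (edgeR adjusted p = 0.043).

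The list of cuticle and epidermal lipid genes held differences in both directions. Of 47 loci tested, 14 were higher in midvein and 9 in leaf, 8 were called, all in midvein, and the median was 0.07. With the replicate block, 18 were higher in midvein and 16 in leaf. Of the 8 called, 6 were lipid-transfer superfamily proteins, small secreted proteins that bind lipids. The strongest was Manes.09G098600 (chromosome 9, 21789134 to 21795857), at 2.80, 4.99 and 11.3 FPKM in leaf and at 368, 471 and 540 FPKM in midvein. This was 72.2-fold by mean FPKM (log2 fold change 6.33, SE 0.54, edgeR adjusted p = 7.8e-09). The most abundant member of the same superfamily, Manes.01G112700, was at 9253, 4928 and 6674 FPKM in leaf and 4314, 3392 and 4872 FPKM in midvein, without passing (log2 fold change −0.64, SE 0.31, edgeR adjusted p = 0.12). With the replicate block it passed and was higher in leaf (edgeR adjusted p = 0.028). Manes.11G111900, also of that superfamily and added after its values were seen, was higher in leaf, at 169 ± 10.4 FPKM against 94.6 ± 8.82 FPKM (SD, n = 3; edgeR adjusted p = 0.0029).

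Regulators of meristems and leaf polarity were found on both sides. Of 50 loci tested, 20 were higher in midvein and 5 in leaf, 7 and 1 were called, and the median was 0.73. Among the homeobox-leucine zipper family loci, Manes.05G098900 was at 4.51, 4.02 and 6.74 FPKM in leaf and at 105, 100.6 and 90.2 FPKM in midvein (log2 fold change 4.37, SE 0.45, edgeR adjusted p = 1.2e-07), and Manes.01G187900 at 2.81, 4.93 and 5.65 FPKM against 39.6, 63.4 and 47.0 FPKM. The locus of that family called higher in leaf, Manes.06G000300, was at 1.70, 1.09 and 0.310 FPKM against 0, 0.157 and 0 FPKM, at least 1.58-fold higher with a floor of 3 fragments in a library. It missed the threshold with the replicate block (edgeR adjusted p = 0.052) and without any of the libraries but leaf 3.

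TCP factors, plant transcription factors that set cell proliferation and leaf shape, diverged between the tissues. Plastid transcription factor 1 (Manes.02G055900; chromosome 2, 4209170 to 4211393), the annotation used for Arabidopsis TCP13, was at 65.3, 58.8 and 67.1 FPKM in leaf and at 14.8, 11.3 and 16.5 FPKM in midvein (log2 fold change −2.10, SE 0.34, edgeR adjusted p = 0.0001). Its mean was 9.25 FPKM in lateral bud, 0.0211 FPKM in petiole and 0.0210 FPKM in stem. The locus annotated as TCP 5 (Manes.06G083400), which was chosen with its values in view, was called the same way at 1.31 ± 0.365 against 0.197 ± 0.122 FPKM (SD, n = 3; edgeR adjusted p = 0.011), a call lost without midvein 2 and with DESeq2. TCP13 and TCP5 belong in Arabidopsis to the CIN class, which limits growth of the blade margin. TCP 14 (Manes.06G093900), of another class, was instead called higher in midvein, at 4.74, 6.396 and 5.16 FPKM against 28.2, 23.9 and 21.4 FPKM. The ratio of plastid transcription factor 1 no longer exceeded 4-fold after rescaling to the same sum.

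Cell division genes showed few differences. Of 21 loci tested, 3 were higher in midvein, 1 was higher in leaf and 2 were called, cyclin p3;1 (Manes.05G049800) and kinesin-like protein 1 (Manes.01G004500), both higher in midvein, with a median of 0.62. With the replicate block, 9 were higher in midvein and 2 in leaf. Cyclin p3;1 was at 1.74, 1.29 and 1.16 FPKM in leaf and at 14.01, 11.1 and 6.54 FPKM in midvein.

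The 92 loci called higher in leaf, of which 28 were annotated, held few members of any list. Besides those above, cytochrome P450 78A10 (Manes.06G082700; chromosome 6, 19598260 to 19600868), of a family that promotes organ growth in Arabidopsis, was at 10.3, 7.60 and 13.3 FPKM in leaf and at 1.13, 0.420 and 1.61 FPKM in midvein (log2 fold change −3.26, SE 0.56, edgeR adjusted p = 0.00011). Outside the leaf it was at 100.95 FPKM in SAM, the shoot apical meristem, and at 28.2 FPKM in lateral bud, both above the blade, and at 0.0422 FPKM in petiole and 0.0639 FPKM in stem. Its call held in every alternative run, which among the 12 most abundant annotated calls higher in leaf was not so for the others. Sodium:hydrogen antiporter 1 (Manes.06G039300) was at 17.7, 8.17 and 17.4 FPKM against 2.18, 2.09 and 3.25 FPKM, and the UDP-glycosyltransferase Manes.07G070400 at 65.5, 72.7 and 160 FPKM against 19.8, 10.3 and 33.6 FPKM. The latter lost its call without leaf 3 or midvein 2. Germin-like protein 1 (Manes.04G144900), a secreted protein, was at 97.9, 865 and 905 FPKM in leaf and at 52.1, 161 and 165 FPKM in midvein. Replicate 1 was lowest in both tissues, leaf 1 lay below midvein 2 and 3, and the call was lost without leaf 2, leaf 3 or midvein 1.

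Neighbouring members of a defence family went in opposite directions. The same MLP-like annotation, of the major latex protein family, lies on 4 loci with consecutive names on chromosome 5. Manes.05G089900 (7341493 to 7342372) was at 138, 383 and 111 FPKM in leaf and at 620, 3032 and 1148 FPKM in midvein (log2 fold change 2.98, SE 0.61, edgeR adjusted p = 0.00077). Next to it, Manes.05G090000 (7358280 to 7359161) was at 656, 1160 and 1206 FPKM in leaf and at 366, 540 and 432 FPKM in midvein (log2 fold change −1.09, SE 0.35, edgeR adjusted p = 0.02). The tissues did not overlap at either locus. At the others, looked up after these, replicate 1 was highest in both tissues. Manes.05G089700 was at 911, 83.9 and 264 FPKM against 592, 59.7 and 266 FPKM, and Manes.05G089800 at 394, 11.9 and 28.3 FPKM against 58.7, 3.29 and 15.4 FPKM, and neither passed (edgeR adjusted p = 0.78 and 0.1). For the Cufflinks step, the methods state that reads matching several genes were left out, and no such setting is stated for the later Cuffdiff step, so values of such similar genes are uncertain.

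Over the defence protein list, 10 of 36 loci tested were higher in midvein and 2 in leaf (6 with the replicate block), 8 and 1 were called, and the median was 0.39. A thaumatin superfamily locus (Manes.11G095900) was at 1.63, 4.87 and 0.761 FPKM in leaf and at 17.1, 40.1 and 15.8 FPKM in midvein, and replicate 2 was highest in both tissues. Germin-like protein 10 was called at Manes.01G236500 and Manes.05G006700, with replicate 2 again highest in both. The call of Manes.05G006700 was lost without leaf 1, leaf 3 or midvein 2.

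Flavonoid, latex and guard cell genes showed no called difference with edgeR. None of 7 flavonoid loci, 3 terpenoid and latex loci or 3 stomatal loci passed an unadjusted or an adjusted p of 0.05, DESeq2 called 1 flavonoid locus higher in midvein and none of the others, and their medians of −0.01, −0.29 and −0.22 became 0.46, 0.44 and 0.29 as log2 FPKM ratios after rescaling to the same sum. With the replicate block, 2 of the flavonoid loci were higher in midvein, and of the stomatal loci 1 was higher in midvein and 1 in leaf. Flavonol synthase 1 (Manes.02G160700) was at 29.5, 49.3 and 35.6 FPKM in leaf and 31.8, 42.5 and 45.7 FPKM in midvein. The rubber elongation factor Manes.09G170000, a protein of latex, was at 21.2, 19.0 and 23.1 FPKM against 18.4, 20.5 and 25.97 FPKM, and phototropin 2 (Manes.03G096100), a blue light receptor, at 108, 68.3 and 79.8 FPKM against 64.1, 53.5 and 56.4 FPKM, which passed only with the replicate block (edgeR adjusted p = 0.026).

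The called loci were then followed into the other 9 tissue/organ types, which took no part in calling the loci beyond the shared estimate of spread. The 1203 loci called higher in midvein had a median of 11.6 FPKM in petiole and 10.3 FPKM in stem, above their 5.97 FPKM in midvein. Their median was 4.61 FPKM in fibrous root, 3.58 FPKM in the shoot apical meristem (SAM, whose RNA was prepared with another kit), 1.72 FPKM in storage root and 0.731 FPKM in friable embryogenic callus (FEC). At 876 of the 1203 the petiole mean was above the midvein mean, against 11617 of all 22920 loci tested. Petiole had the highest level of the 9 at 24.4% of them and stem at 17.3%, against 9.76% and 10.4% of all loci tested. Called loci of this set thus lay high in the stalk and stem as well, with exceptions such as senescence-associated gene 29 (Manes.12G006700), at 0.359 FPKM in petiole, 0.830 FPKM in stem and 27.9 FPKM in organized embryogenic structures.

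The 92 loci called higher in leaf had a median of 0.261 FPKM in petiole and 0.357 FPKM in stem, below their 0.960 FPKM in midvein. Their highest median outside the leaf was 0.966 FPKM, in lateral bud. The midvein median of this set therefore lay between those of the blade and the petiole, although its place below the blade follows from the calling. At 22 of the 92 the petiole mean was above the midvein mean. The photosystem and antenna list ran in the same order, with summed means of 66954 FPKM in leaf, 33722 FPKM in midvein, 13874 FPKM in petiole and 16628 FPKM in stem. The secondary wall and xylem list ran the other way, with 156, 450, 1022 and 1061 FPKM over its 35 loci. That list was not particular to vein and stalk, with sums of 1120 FPKM in SAM and 988 FPKM in storage root. Its sums were 816 FPKM in fibrous root, 778 FPKM in the root apical meristem and 705 FPKM in organized embryogenic structures. Lateral bud and FEC were lower than midvein, at 300 and 222 FPKM.

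**Figure D4:**
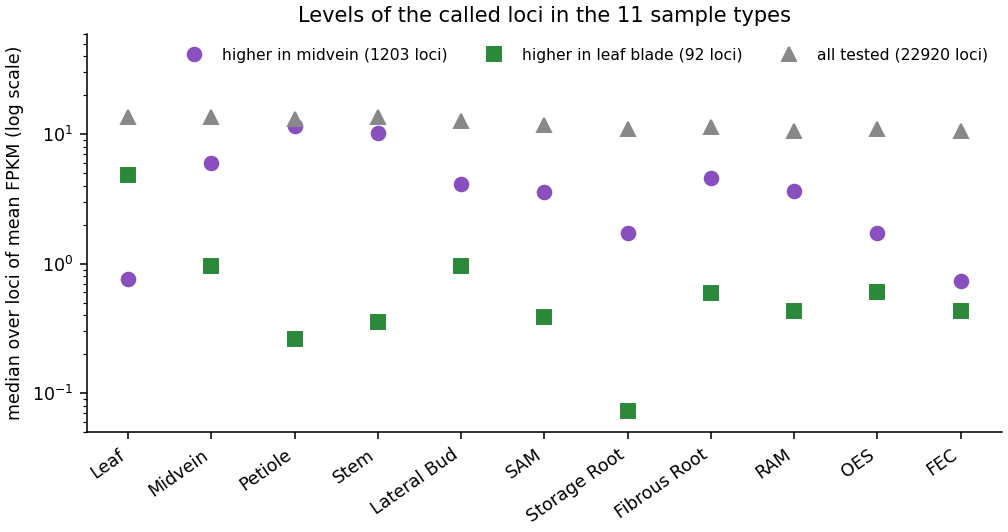
Median over loci of the mean FPKM (vertical, log scale) in the 11 tissue/organ types for the 1203 loci called higher in midvein (purple circles), the 92 called higher in leaf blade (green squares) and all 22920 loci tested (grey triangles). RAM is the root apical meristem and OES are organized embryogenic structures. The purple circles rise from 0.757 FPKM in leaf to 11.6 FPKM in petiole and 10.3 FPKM in stem, while the green squares fall from 4.87 to 0.261 and 0.357 FPKM. The steps between leaf and midvein follow from the calling.

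Leaf 1 differed from the other leaf libraries in heat shock genes, which refold or hold damaged proteins. Heat shock protein 21 (Manes.01G042200; chromosome 1, 6892755 to 6893838), a small chaperone of the chloroplast in Arabidopsis, was at 3728, 0.695 and 1.93 FPKM in leaf 1, 2 and 3 and at 222, 17.6 and 54.3 FPKM in midvein 1, 2 and 3. Replicate 1 was thus highest in both tissues, by a wide margin in leaf. The log2 fold change of −3.59 (SE 1.75, edgeR adjusted p = 0.13) did not pass, without leaf 1 it was 6.41 and passed (edgeR adjusted p = 0.021), and with the replicate block it was 1.36 (adjusted p = 0.6), so no direction is given for it. Histone H1-3 (Manes.01G144600), a linker histone that responds to stress in Arabidopsis, was at 1512, 460 and 252 FPKM in leaf and at 723, 625 and 433 FPKM in midvein.

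The 28 tested loci annotated as heat shock or HSP20-like proteins, picked after leaf 1 was seen to differ, summed to 5019, 1181 and 1245 FPKM in leaf and to 1434, 1434 and 1237 FPKM in midvein. Leaf 1 had the highest leaf value at 18 of the 28, and its median of 9.05 FPKM was close to the 7.05 to 11.3 FPKM of the midvein libraries, while leaf 2 and 3 had medians of 2.04 and 2.06 FPKM. Of these loci, 8 were higher in midvein, 2 were higher in leaf and 7 were called, all higher in midvein. Without leaf 1 the called number was 12. HSP20-like Manes.09G099300, at 57.9, 30.4 and 51.5 FPKM in leaf and 322, 263 and 342 FPKM in midvein, was called with and without leaf 1. The wider list of jasmonate, WRKY and heat shock genes had 20 of 82 loci higher in midvein, 7 higher in leaf (13 with the replicate block) and 14 called, with a median of 0.21, and included WRKY DNA-binding protein 57 (Manes.05G108600), at 2.40, 1.37 and 0.594 FPKM against 14.6, 14.8 and 10.1 FPKM. Over all loci, 1232 were called without leaf 1, with 1042 in common with the 1295.

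**Figure D5:**
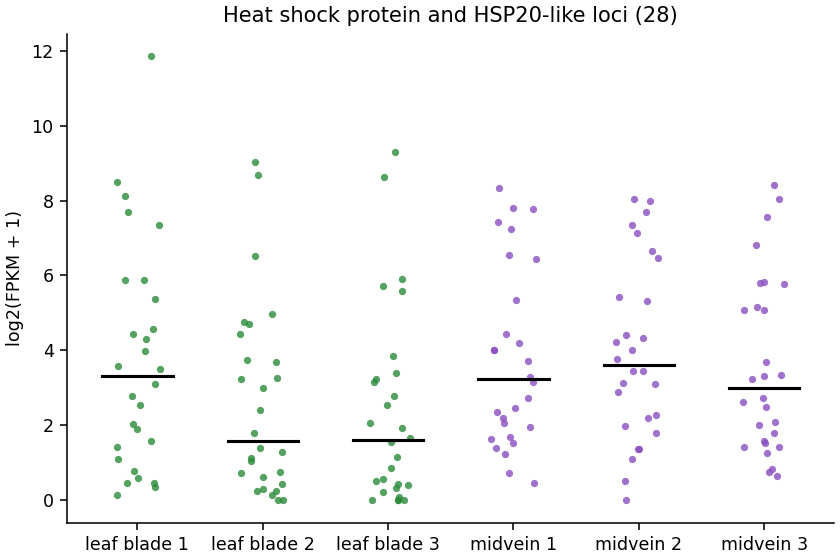
Log2(FPKM + 1) (vertical) of the 28 heat shock and HSP20-like loci in each of the 3 leaf blade and 3 midvein libraries (horizontal), with black bars for the medians. Leaf blade 1 has a median near those of the midvein libraries and holds the highest point, heat shock protein 21 at 3728 FPKM, while leaf blade 2 and 3 have lower medians.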

How the data were processed

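RNA-seq was carried out on polyadenylated RNA. After trimming (Trimmomatic 0.32), the authors aligned reads to AM560-2 v6.1 using TopHat2, and Cuffdiff 2.2.1 quantified Cuffmerge loci. Deposited for each library were FPKM, an estimated count of fragments per locus (78.2% whole numbers, rounded here) and a scaled fragment signal, read only for its scale. Of 38593 loci, 5861 without a gene name (1.73% to 4.29% of fragments) were left out, 2063 named loci hold several genes and 2110 names lie on several loci. A series table repeating the FPKM was not used.

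EdgeR 4.0.16 fitted 11 tissue means to all 32 libraries with TMM (factors 0.720 to 1.15, common biological coefficient of variation 0.264), and midvein minus leaf was tested by quasi-likelihood. Standard errors were taken as the absolute log2 fold change over the root of F. Alternatives used limma 3.58.1, DESeq2 1.42.0, RLE factors, other limits, rescaled FPKM, and each library left out. The scripts were tested on simulated data. A floor of 3 fragments bounded folds and covers counting error only.

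Named genes were, per direction, the 12 called, annotated single-gene loci of highest level and the 12 of largest ratio (at least 10 FPKM, no overlap, over 3 fragments in a lower library), and per list up to 4 called members per direction and the most abundant uncalled one. Members and lists were chosen with earlier results of these data known. Coordinates are as the study lists them, on v6.1. No Manes identifier matched the RefSeq table, so no sequence is shown.

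Deviations from the tissue means correlated at 0.406, 0.411 and 0.404 between same-numbered leaf and midvein libraries, and at −0.310 to −0.0991 otherwise. By this measure the numbers pair the libraries, although the labels do not state what they share. The main fit held no replicate term, and the replicate block was run as an alternative.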

Additional observations from a re-analysis of the deposited data

Results flagged for a closer look

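Loci without a gene name, which the comparison of leaf and midvein did not use, also differed. Added to the same fit, 2149 of them were tested and 92 (4.28%) were called, 79 higher in midvein and 13 higher in leaf. This fit was chosen after seeing the data.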

How the results depend on the processing

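The 1295 calls became 484 at a minimum of 10 FPKM, 3361 at a fold limit of 2 and 537 with the limit on log2(FPKM + 1). Those higher in leaf (92) became 35, 1035 and 33, those higher in midvein (1203) became 449, 2326 and 504, and list members called (91) became 51, 189 and 49. Calls higher in leaf were 141 with limma on log2(FPKM + 1) and 30 after rescaling to the same sum. At the adjusted p alone, 4566 loci were higher in leaf with the replicate block and 2091 were higher in midvein at a minimum of 10 FPKM. Leaving out each library in turn gave 1048 to 1352 calls, 67 to 117 higher in leaf, 981 to 1241 higher in midvein, 73 to 95 among list members, and 61 to 73 of the 76 named genes that were called. At the adjusted p alone it gave 1586 to 3028 loci higher in leaf and 2651 to 3066 higher in midvein, and −5.12 to 6.41 for the log2 fold change of heat shock protein 21 (Manes.01G042200), −0.72 to 0.76 for histone H1-3 (Manes.01G144600), −0.058 to 0.35 for flavonol synthase 1 (Manes.02G160700) and −0.0504 to 0.17 for Manes.09G170000. With the replicate block, limma with a pseudocount of 1 and limma with 0.1, heat shock protein 21 was at 1.36, 1.21 and 1.72 and histone H1-3 at 0.14, 0.051 and 0.052, none passing. The cause of these moves was not tested. The replicate block removed the call of Manes.06G000300 and changed no other call among the 76. DESeq2 gave 1314 calls, 1262 of them shared.

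With 3 libraries a tissue and 8.98 or more fragments at 1 FPKM, ratios of loci near 1 FPKM are imprecise. At 127 short loci, above 100 FPKM on fewer than 20 fragments, FPKM is not a usable level, and none was called.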
